A study of Mus musculus with 21 samples.

Results

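The 5 genes that encode NF-κB subunits (*Nfkb1*, *Nfkb2*, *Rel*, *Rela* and *Relb*) and 5 genes of feedback and restraint in the same pathway (*Nfkbia*, *Nfkbiz*, *Tnfaip3*, *Traf3* and *Birc3*) were described in IgA+ PCs, plasma cells that secrete IgA and were taken from the lamina propria of the small intestine. They were taken by gene name as 10 of the 53801 genes listed, with earlier results of these data known, and all 10 passed a filter that kept 20256 genes with at least 10 counts over all libraries. Each library was the bulk poly-A RNA of CD138+ IgA+ cells sorted from 1 mouse of the C57BL/6 strain. There were 6 control mice (Mb1Cre-/- x Arntl fl/fl) at ZT0, 6 control mice at ZT12, 4 knockout mice (Mb1Cre+/- x Arntl fl/fl) at ZT0 and 5 knockout mice at ZT12, where ZT counts hours from lights on, and floxed *Arntl* alleles were carried by controls too. Cre is expressed from *Mb1* (*Cd79a*), a gene of the B cell lineage, so *Arntl*, which encodes the clock factor Bmal1, was targeted in that lineage. Ages were not among the labels. The genotype was taken from the sample titles, because the genotype field of 8 of the 9 samples titled knockout names the control genotype.

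Libraries held 14471018 to 22785835 counts, of which 51.5% to 63.6% lay on immunoglobulin genes. *Arntl* averaged 7.80 ± 0.53 CPM (SD, n = 6) in control mice at ZT0 and 4.87 ± 1.08 CPM (SD, n = 4) in knockout mice at ZT0, and 4.54 ± 0.55 and 3.89 ± 0.70 CPM at ZT12 (SD, n = 6 and 5). Its transcript was therefore present in all groups, and the deleted exon was not resolved by counts per gene. *Cd79a*, which holds the Cre insertion, was at most 276 CPM in the knockout libraries and at least 386 CPM in the control libraries. The plasma cell markers were all detected, with a summed level of 282902 to 594718 CPM over 11 genes that was carried mostly by immunoglobulin and J chain transcripts. The summed level of 11 markers of other B cells was 17.7 to 44.0 CPM, that of 11 T cell markers 12.5 to 32.7 CPM and that of 13 myeloid markers 19.3 to 123 CPM. The summed level of 13 epithelial markers had a median of 87.1 CPM and was highest in control ZT12 replicate 5 (849 CPM), knockout ZT12 replicate 5 (691 CPM) and control ZT0 replicate 6 (292 CPM), followed by a library at 236 CPM. In bulk RNA, fewer cells of a type and less RNA per cell cannot be told apart.

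NF-κB is a family of dimeric transcription factors that are held inactive in the cytoplasm until a receptor signals. In the canonical arm, IκBα (*Nfkbia*) retains dimers of p50 (*Nfkb1*), RelA and c-Rel (*Rel*), and the IKK complex marks IκBα for degradation. In the non-canonical arm, which follows receptors for BAFF and related ligands in B lineage cells, the kinase NIK drives processing of p100 (*Nfkb2*) to p52, the partner of RelB. TRAF3 and cIAP2 (*Birc3*) keep NIK low, A20 (*Tnfaip3*) edits ubiquitin on upstream signalling proteins, and IκBζ (*Nfkbiz*) acts in the nucleus as a cofactor. Many of these genes are themselves NF-κB targets, which closes feedback loops.

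The sequence before the transcription start was examined because several of these genes are known to be NF-κB targets. Windows of 250 bases before the start were taken from RefSeq (GRCm38.p6), in which 7 of the 10 genes matched, while *Nfkb1*, *Relb* and *Nfkbiz* were not matched. The κB consensus was searched on both strands, so that palindromic or shifted matches overlap. It occurred in 7.25% of 32851 mouse windows of this length and in 7 of the 10 windows of the matched genes, some of which have several windows. Of the 7 matched genes, 5 had it in at least 1 window (*Nfkb2*, *Nfkbia*, *Rel*, *Tnfaip3* and *Traf3*). The E-box CACGTG, a sequence that clock factors can bind, occurred in 6.02% of windows and in 1 of these 10, a window of *Tnfaip3*. The windows of *Nfkb2* (chr19:46304487-46304736, + strand), *Nfkbia* (chr12:55492648-55492897, - strand) and *Birc3* (chr9:7873171-7873420, - strand) are shown 5′ to 3′ because they are a subunit, its inhibitor and a regulator whose values are described next, with matches to the κB consensus in capitals and the transcription start after the last base.
Nfkb2: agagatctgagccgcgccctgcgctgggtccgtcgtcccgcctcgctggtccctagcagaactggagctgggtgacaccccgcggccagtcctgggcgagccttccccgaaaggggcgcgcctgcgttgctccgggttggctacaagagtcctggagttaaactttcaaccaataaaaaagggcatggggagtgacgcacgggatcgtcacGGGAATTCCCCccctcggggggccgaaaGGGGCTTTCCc
Nfkbia: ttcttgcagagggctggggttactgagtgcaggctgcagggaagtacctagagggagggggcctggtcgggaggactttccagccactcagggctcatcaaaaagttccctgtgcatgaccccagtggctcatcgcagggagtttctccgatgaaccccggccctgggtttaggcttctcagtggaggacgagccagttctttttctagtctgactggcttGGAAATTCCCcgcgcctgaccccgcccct
Birc3: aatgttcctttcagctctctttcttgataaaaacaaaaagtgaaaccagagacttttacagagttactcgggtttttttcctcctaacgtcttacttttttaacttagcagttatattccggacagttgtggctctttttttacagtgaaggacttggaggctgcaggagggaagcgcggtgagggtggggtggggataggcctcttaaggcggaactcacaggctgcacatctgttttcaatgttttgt
In *Nfkb2* the capitals nearest the start lie 11 to 2 bases before it, and the others 39 to 29 bases before it. In *Nfkbia* the match lies 29 to 20 bases before the start. The window of *Birc3* held neither sequence, which says only that these letters are not in this window. A match is a description of letters and not a measured binding site.

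All 10 genes were well covered, with 256 to 4035 counts per gene and library. Per length (CPM divided by the length in kilobases that the table gives, mean of the 4 groups), *Nfkbia* was highest at 78.7, followed by *Nfkb2* at 53.0, *Rela* at 30.8 and *Birc3* at 24.8. *Relb* (14.6), *Tnfaip3* (13.6) and *Traf3* (10.03) were intermediate, and *Nfkbiz* (4.77), *Rel* (4.73) and *Nfkb1* (4.70) were lowest. The order of the first 5 genes held in each of the 21 libraries. *Relb* exceeded *Tnfaip3* in 14 of 21 libraries, *Nfkbiz* exceeded *Rel* in 8 and *Rel* exceeded *Nfkb1* in 13, so these neighbours were not separated beyond their spread. The non-canonical subunit *Nfkb2* was 12.1 ± 1.12 times *Nfkb1* per length in control mice at ZT0 and 11.8 ± 1.74 times at ZT12 (SD, n = 6 and 6), and 11.7 ± 1.16 and 9.78 ± 1.61 times in knockout mice (SD, n = 4 and 5). These ratios and the order above depend on the lengths given, which are 3289 bases for *Nfkb2* and 12061 bases for *Nfkb1*. Whether these are the lengths of the transcripts expressed here was not tested. Without division by length, the means in control mice at ZT0 were 193 CPM for *Nfkb2* and 59.0 CPM for *Nfkb1*.

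**Figure D1:**
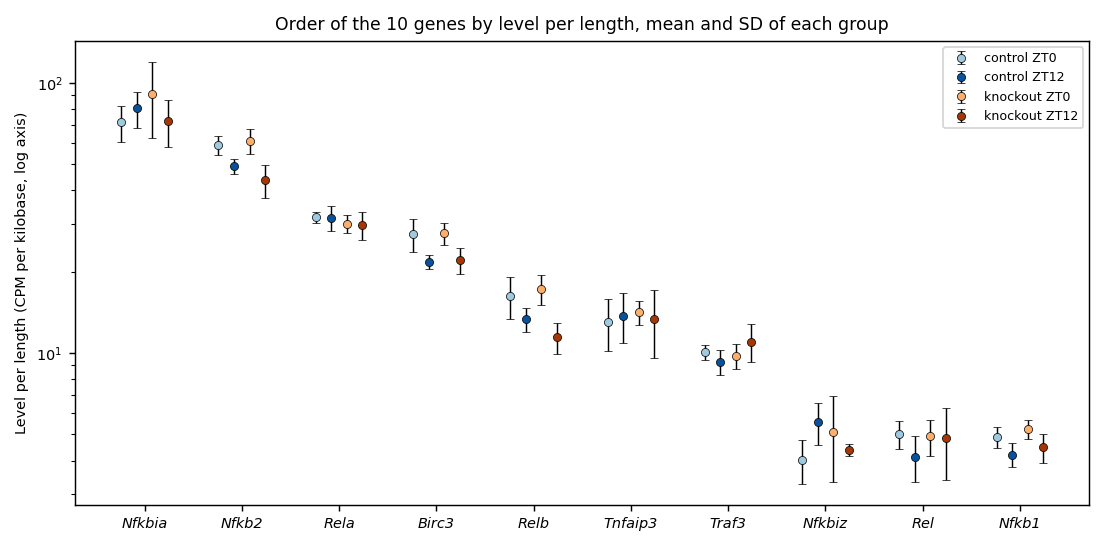
Level per length of each gene (CPM per kilobase, log axis), as the mean (point) and SD (bar) of each of the 4 groups, ordered by the mean over groups. *Nfkbia* and *Nfkb2* lead, and *Nfkbiz*, *Rel* and *Nfkb1* lie together near 5.

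**Figure D2:**
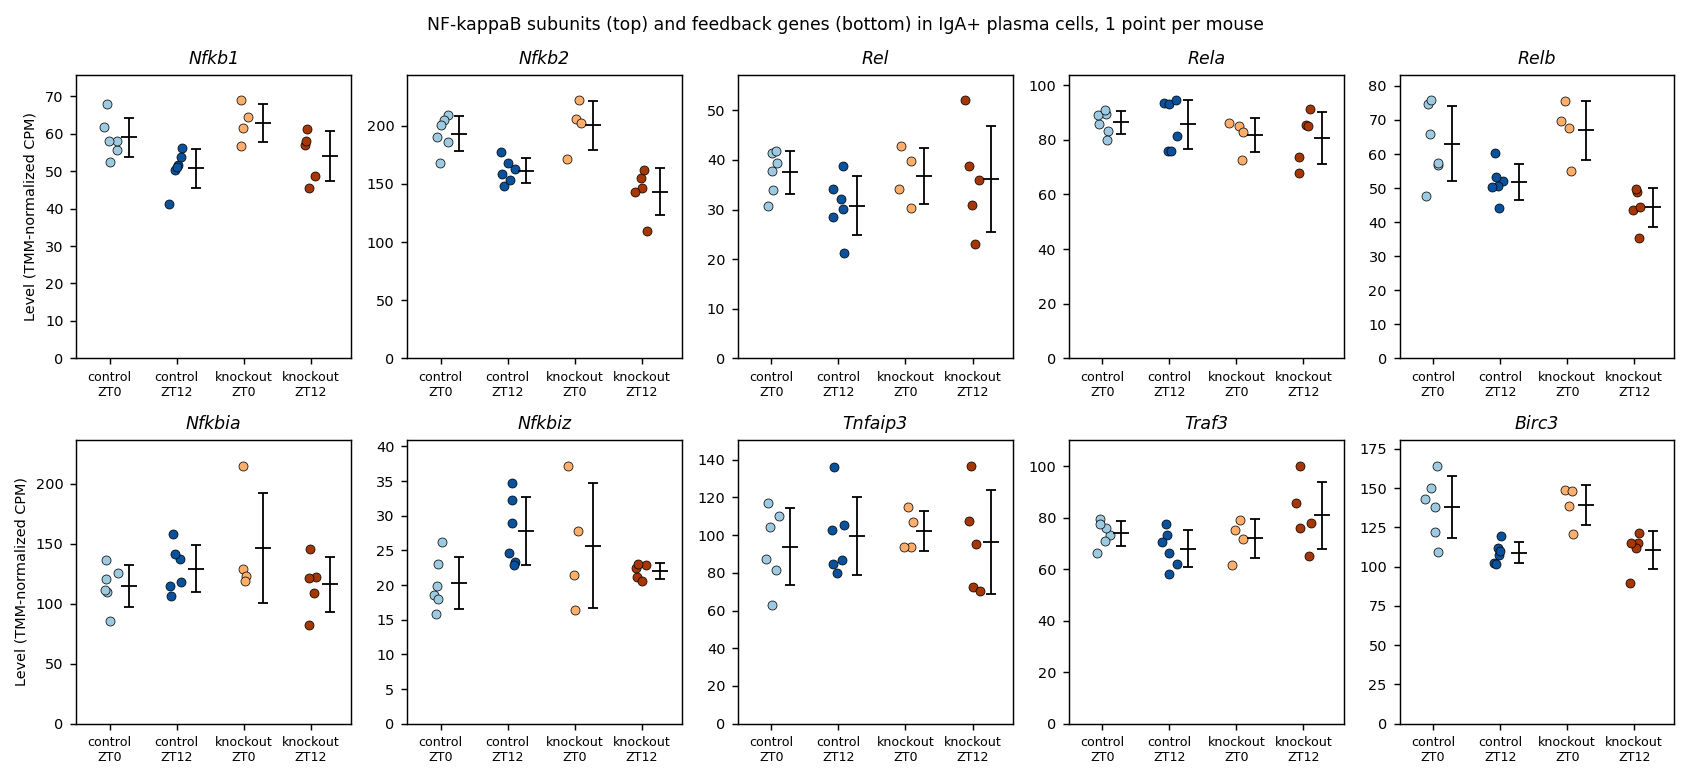
TMM-normalized CPM of each gene in each mouse (points) by group, with the group mean and SD (bars) and axes from 0. *Nfkb2* and *Relb* of knockout mice do not overlap between ZT0 and ZT12, and *Nfkbia* in knockout mice at ZT0 includes 1 mouse at 215 CPM.

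The first question was whether these genes differed between ZT0 and ZT12 in control mice. In edgeR's quasi-likelihood test with Benjamini-Hochberg adjustment over all genes, none of the 10 genes passed an adjusted p of 0.05, where 350 of 20256 genes (1.73%) did. At an unadjusted p under 0.05 there were 5 of the 10 genes (*Nfkb1*, *Nfkb2*, *Relb* and *Birc3* with lower and *Nfkbiz* with higher fitted values at ZT12), against 18.1% of all genes (8.86% with lower and 9.19% with higher values). The groups overlapped for each of the 10 genes, while 1.6% of all genes had groups that did not overlap. DESeq2 called 1052 genes in all and 2 of the 10, *Nfkbiz* and *Birc3*. The fitted value was below 0 for all 5 subunits, with a median of -0.26 against 0.0063 for all genes tested. For *Rela* it was -0.011 (SE 0.088), which lies within 1 SE of 0. The same question in knockout mice gave no call for any gene (0%) by edgeR and 47 by DESeq2, and 3 of the 10 genes (*Nfkb2*, *Relb* and *Birc3*, with lower values at ZT12) had an unadjusted p under 0.05, against 8.01% of all genes (4.09% with lower values). There DESeq2 called *Nfkb2* and *Relb*. The comparisons in control and knockout mice share no libraries, although they share one estimate of the spread.

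*Nfkb2* (ENSMUSG00000025225, chr19:46304737-46312090, + strand) encodes p100, the precursor of the non-canonical subunit p52. In control mice its level at ZT0 was 168 CPM at the lowest, 195 at the median and 209 at the highest, and at ZT12 it was 148, 160 and 177 CPM. The 4 knockout mice at ZT0 had 172, 202, 206 and 222 CPM, and the 5 at ZT12 had 109, 143, 146, 155 and 162 CPM. The control groups overlapped and the knockout groups did not, a pattern that 2.63% of all genes showed between the knockout groups (1.41% with lower values at ZT12). The log2 fold change was -0.26 (SE 0.10, 95% interval -0.46 to -0.06, edgeR adjusted p = 0.154) in control mice and -0.48 (SE 0.11, interval -0.71 to -0.26, adjusted p = 0.230) in knockout mice. Without knockout ZT12 replicate 5, the lowest library, the knockout value was -0.41. The annotated end of *Nfkb2* shares 4 bases with *Psd* on the opposite strand, which had 23.8 to 48.8 CPM, and whether reads were counted by strand is not given in the sources used here.

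*Relb* (ENSMUSG00000002983, chr7:19606217-19629438, - strand) encodes RelB, the partner of p52. In control mice it was 47.8 CPM at the lowest, 61.7 at the median and 75.8 at the highest at ZT0, and 44.1, 51.4 and 60.2 CPM at ZT12. Among knockout mice, those at ZT0 had 55.1, 67.7, 69.6 and 75.4 CPM, and those at ZT12 had 35.2, 43.6, 44.3, 48.8 and 49.8 CPM. All knockout mice at ZT12 were therefore below all those at ZT0, and the control groups overlapped. The log2 fold change was -0.28 (SE 0.11, interval -0.52 to -0.05, edgeR adjusted p = 0.184) in control mice and -0.59 (SE 0.13, interval -0.86 to -0.33, adjusted p = 0.230) in knockout mice.

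*Birc3* (ENSMUSG00000032000, chr9:7848699-7873186, - strand) encodes cIAP2, a ubiquitin ligase that acts with TRAF proteins and has a close paralog in *Birc2*. Control mice had 109 CPM at the lowest, 140 at the median and 164 at the highest at ZT0, and 102, 109 and 119 CPM at ZT12. Knockout mice had 121.0, 139, 148 and 149 CPM at ZT0, against 89.5, 111, 115, 115 and 121.5 CPM at ZT12. Both pairs of groups overlapped, in knockout mice only by the lowest ZT0 and the highest ZT12 library. The log2 fold change was -0.34 (SE 0.10, interval -0.54 to -0.14, edgeR adjusted p = 0.0708) in control mice and -0.33 (SE 0.11, interval -0.57 to -0.10, adjusted p = 0.548) in knockout mice. In control mice, leaving out 1 library at a time gave edgeR adjusted p-values from 0.0452 (without control ZT12 replicate 6) to 0.162. *Birc3* passed 0.05 in 1 of these 21 fits.

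Because these values were lower at ZT12 in both genotypes, the mean of both time differences was added after the data were seen, and its calls are not independent of that choice. It called 3 of the 10 genes lower at ZT12, where 94 of 20256 genes (0.464%) were called lower and 163 (0.805%) in either direction. At an unadjusted p under 0.05 there were 4 of the 10, all lower, against 15.4% of all genes (6.82% lower). The calls were *Nfkb2* (-0.37, SE 0.07, interval -0.52 to -0.22, edgeR adjusted p = 0.0127), *Relb* (-0.44, SE 0.09, interval -0.62 to -0.26, adjusted p = 0.0127) and *Birc3* (-0.34, SE 0.07, interval -0.49 to -0.18, adjusted p = 0.0252), and none passed an adjusted p of 0.01. These are levels of 77.2%, 73.7% and 79.2% of those at ZT0. Without knockout ZT0 replicate 1 the adjusted p of *Birc3* was 0.0621, and without the 3 libraries of high epithelial markers it was 0.0948, while *Nfkb2* and *Relb* kept adjusted p-values of 0.0306 and 0.0413 there. The table lists the libraries in 3 runs of columns, whose meaning is not stated. Within each genotype and run, the ZT12 minus ZT0 difference in mean log2 CPM was below 0 in 6 of 6 cases for *Nfkb2* (-0.60 to -0.24), 6 of 6 for *Birc3* (-0.57 to -0.16) and 5 of 6 for *Relb* (-0.71 to 0.058), each from 1 to 3 mice per time. It was also below 0 in 6 of 6 for *Nfkb1* (-0.44 to -0.089) and for *Rel* (-0.35 to -0.052), which were not called. These are the libraries that gave the calls, so the counts describe them and are no further test.

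**Figure D3:**
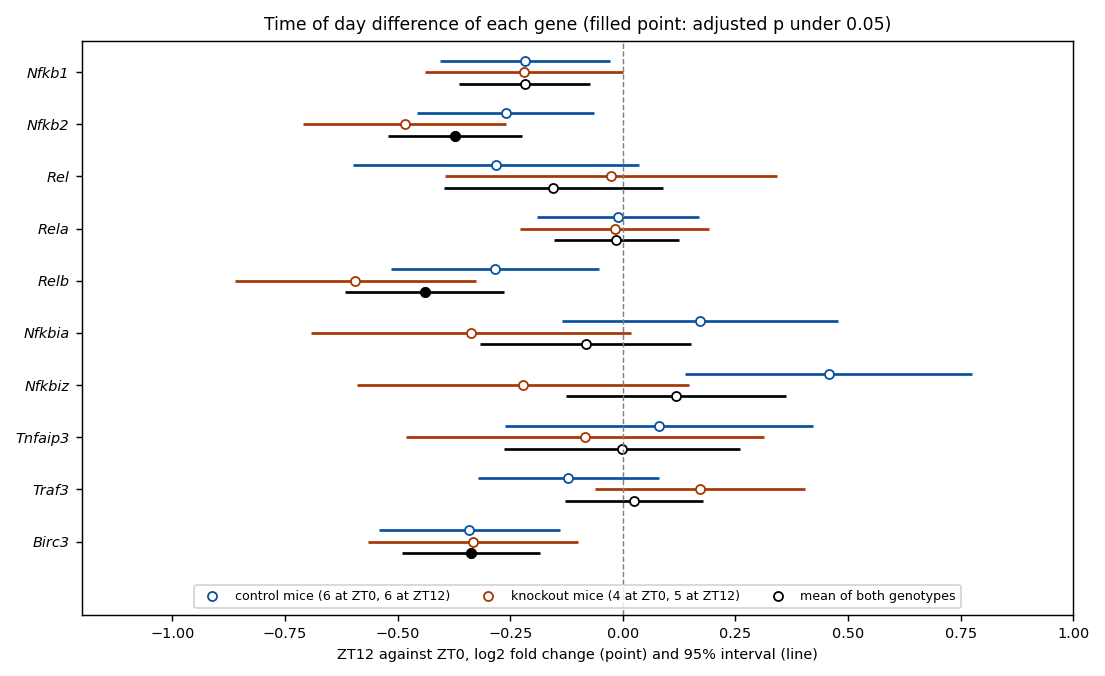
Fitted log2 fold change of ZT12 against ZT0 (point) with its 95% interval (line) for each gene, in control mice, in knockout mice and as the mean of both. Filled points are values with an adjusted p under 0.05, which are *Nfkb2*, *Relb* and *Birc3* in the mean of both genotypes.

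The subunits of the canonical arm were not called in any comparison. *Nfkb1* (ENSMUSG00000028163, chr3:135584655-135691547, - strand), which encodes p105 and p50, had a log2 fold change of -0.22 in control mice (SE 0.09, edgeR adjusted p = 0.211) and of -0.22 in knockout mice (SE 0.11, adjusted p = 0.615), and its mean over both did not pass the test (adjusted p = 0.142). *Rel* (ENSMUSG00000020275, chr11:23736847-23770970, - strand), which encodes c-Rel, had values of -0.28 (interval -0.60 to 0.03) and -0.03 (interval -0.39 to 0.34). For *Rela* (ENSMUSG00000024927, chr19:5637483-5648130, + strand), which encodes the main transactivating subunit of the canonical arm, the intervals were -0.19 to 0.17 in control and -0.23 to 0.19 in knockout mice, so a difference larger than these bounds was not seen. *Rela* ranged from 67.7 to 94.4 CPM over the 21 mice. *Relb* per unit of *Rela*, both per length, was 0.510 ± 0.082 at ZT0 and 0.424 ± 0.046 at ZT12 in control mice (SD, n = 6 and 6), and 0.572 ± 0.046 and 0.385 ± 0.028 in knockout mice (SD, n = 4 and 5).

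Among the feedback genes, *Nfkbiz* and *Nfkbia* had fitted differences of opposite sign in the 2 genotypes. *Nfkbiz* (ENSMUSG00000035356, chr16:55811375-55838899, - strand) in control mice was 15.8 CPM at the lowest, 19.2 at the median and 26.1 at the highest at ZT0, and 22.9, 26.8 and 34.7 CPM at ZT12. Knockout values were 16.3, 21.4, 27.9 and 37.2 CPM at ZT0, against 20.6, 21.1, 22.5, 22.9 and 23.0 CPM at ZT12. The groups overlapped in both genotypes, and the knockout ZT12 mice were closely spaced within the wide range of the ZT0 mice. The log2 fold change was 0.46 (SE 0.15, interval 0.14 to 0.77, edgeR adjusted p = 0.128) in control mice and -0.22 (SE 0.18, interval -0.59 to 0.15, adjusted p = 0.772) in knockout mice. Without knockout ZT0 replicate 3 the knockout value of *Nfkbiz* was 0.01.

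*Nfkbia* (ENSMUSG00000021025, chr12:55489410-55492647, - strand), the most highly expressed of the 10 genes per length, was 85.4 CPM at the lowest, 116 at the median and 136 at the highest in control mice at ZT0, and 106, 128 and 158 CPM at ZT12. Knockout mice had 119, 123, 129 and 215 CPM at ZT0, against 82.1, 109, 121, 122 and 146 CPM at ZT12. All groups overlapped, and knockout ZT0 replicate 3 stood above every other library. The log2 fold change was 0.17 (SE 0.15, interval -0.13 to 0.48, edgeR adjusted p = 0.572) in control mice and -0.34 (SE 0.17, interval -0.69 to 0.02, adjusted p = 0.62) in knockout mice, and the knockout value was -0.09 without that replicate.

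*Tnfaip3* (ENSMUSG00000019850, chr10:19000910-19015657, - strand), which encodes A20, had log2 fold changes of 0.08 (interval -0.26 to 0.42) in control and -0.08 (interval -0.48 to 0.31) in knockout mice. *Traf3* (ENSMUSG00000021277, chr12:111166370-111267153, + strand) had values of -0.12 (interval -0.32 to 0.08) and 0.17 (interval -0.06 to 0.40). Neither gene had an unadjusted p under 0.05 in the time comparisons by edgeR. *Tnfaip3* ranged from 63.0 to 137 CPM over all mice, with the group SD between 10.4 and 27.4 CPM.

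Whether the time difference itself differed between genotypes was tested as an interaction (knockout difference minus control difference), which shares libraries with both time comparisons. It called no gene at all by edgeR (0%) and 4 by DESeq2, and 2 of the 10 genes, *Nfkbiz* and *Nfkbia*, had an unadjusted p under 0.05, against 10.8% of all genes (5.63% with values below 0), and DESeq2 called none of the 10. The value was -0.68 for *Nfkbiz* (SE 0.24, interval -1.16 to -0.19, edgeR adjusted p = 0.442) and -0.51 for *Nfkbia* (SE 0.23, interval -0.98 to -0.04, adjusted p = 0.451). Without knockout ZT0 replicate 3 they were -0.45 and -0.27. For the genes lower at ZT12 the interaction was -0.22 for *Nfkb2* (interval -0.52 to 0.08), -0.31 for *Relb* (interval -0.66 to 0.04) and 0.01 for *Birc3* (interval -0.30 to 0.32), so no difference between genotypes was detected and these intervals bound its size.

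Levels of genes of the response to tissue dissociation and the immunoglobulin share are given beside these genes. Over the 21 libraries, which share mice and time of day, r with the summed dissociation level was 0.63 for *Nfkbiz*, 0.61 for *Rela*, 0.60 for *Nfkbia* and 0.51 for *Relb*. With the immunoglobulin share, r was 0.65 for *Nfkbiz*, 0.51 for *Nfkbia*, -0.56 for *Rel*, -0.55 for *Traf3* and 0.0026 for *Relb*. With summed markers of other B cells, r was -0.71 for *Nfkbiz* and 0.58 for *Rel*. With T cell markers it was 0.67 for *Rel*, 0.53 for *Tnfaip3* and 0.50 for *Traf3*. With myeloid markers it was 0.55 for *Traf3*, 0.50 for *Rel* and -0.52 for *Nfkbiz*. With epithelial markers it was -0.55 for *Birc3*, -0.40 for *Relb*, -0.39 for *Nfkb2* and 0.30 for *Nfkbiz*. The part of T cell, myeloid and other B cell RNA in these values was not tested. The summed level of 14 dissociation genes was 3252 to 7289 CPM (median 4762) in control mice at ZT0 and 3378 to 9170 CPM (median 7476) at ZT12. Knockout libraries summed to 3727 to 9873 CPM (median 5304) at ZT0 and to 3225 to 5684 CPM (median 4520) at ZT12. The highest library of all was knockout ZT0 replicate 3, which also had the highest *Nfkbia* and *Nfkbiz*. Of these 14 genes, 13 had a fitted value above 0 in control mice (4 at an unadjusted p under 0.05) and 9 a value below 0 in knockout mice (4 lower and 2 higher at an unadjusted p under 0.05). Of all genes, 18.1% and 8.01% had an unadjusted p under 0.05 in these comparisons. In the interaction 11 of the 14 were below 0, with 8 at an unadjusted p under 0.05 (10.8% of all genes) and a median of -0.78. In knockout against control mice at ZT12, 11 were also below 0, with 9 at an unadjusted p under 0.05 (8.83% of all genes) and a median of -0.56. None of the 14 was called by edgeR in these comparisons. The immunoglobulin share averaged 52.8% ± 0.72 and 57.4% ± 3.99 in control mice at ZT0 and ZT12 (SD, n = 6 and 6), and 55.1% ± 2.91 and 54.6% ± 0.95 in knockout mice (SD, n = 4 and 5). With that share as a covariate the control value was 0.20 for *Nfkbiz* and -0.09 for *Nfkbia*, and their interaction was -0.37 and -0.19. With the same covariate the control value of *Rel* was -0.058. The part of dissociation in these results was not tested.

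Knockout and control mice were also compared at each time. At ZT0 none of the 10 genes was called by edgeR, where 2 of 20256 genes (0.00987%) were, and *Nfkbia* alone had an unadjusted p under 0.05 (4.9% of all genes, 2.66% with higher values in knockout mice). Its log2 fold change of knockout against control mice was 0.35 (SE 0.17, interval 0.01 to 0.69, edgeR adjusted p = 0.926), and without knockout ZT0 replicate 3 it was 0.11, with an unadjusted p of 0.474. At ZT12 none of the 10 genes was called, where 3 genes (0.0148%) were, and *Traf3* alone had an unadjusted p under 0.05 (8.83% of all genes, 4.25% with higher values in knockout mice), with a log2 fold change of 0.25 (SE 0.10, interval 0.04 to 0.46, adjusted p = 0.562). Without knockout ZT12 replicate 4 this value was 0.16. *Traf3* was 58.2 CPM at the lowest, 68.5 at the median and 77.4 at the highest in control mice at ZT12, and 65.1, 76.2, 77.9, 85.7 and 100.2 CPM in knockout mice, and the groups overlapped. DESeq2 called none of the 10 genes in either comparison, and no gene of the 10 had groups that did not overlap, as 0.977% of all genes did at ZT0 and 0.38% at ZT12.

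The genes most like each member were ranked by Pearson's r of log2 CPM over the 21 libraries among 11395 genes with a mean of at least 1 CPM, immunoglobulin genes left out. The points share mice, depth and time of day, and the values are descriptions. The gene most like *Nfkb2* was *Relb* (r = 0.91, Spearman's rho 0.86), and r was 0.87 without the 2 libraries farthest from the median of *Nfkb2*. With the group means removed r was 0.75. The genes most like *Relb* were *Nfkb2* and *Birc3* (r = 0.85), and for *Birc3* they were *Zmiz2* (r = 0.88) and *Relb*. For *Nfkb2* and *Nfkbiz* r was -0.0060. Over all 45 pairs of the 10 genes the median r was 0.35, from -0.44 to 0.91.

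**Figure D4:**
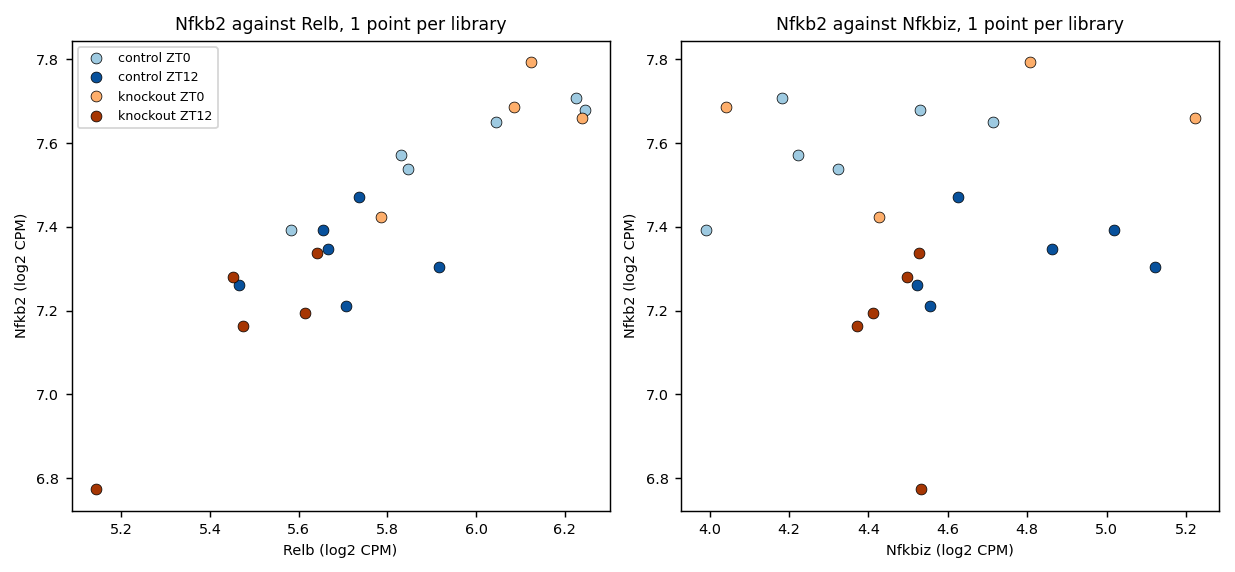
Log2 CPM of *Nfkb2* against *Relb* (left) and against *Nfkbiz* (right), with 1 point per library and colours for the 4 groups. Libraries with a higher level of one had a higher level of the other on the left (r = 0.91), with knockout ZT12 replicate 5 lowest, and show no slope on the right.

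For the remaining genes the closest were *Trim56* and *Foxj2* for *Nfkb1* (r = 0.82 and 0.82), *Rnf216* and *Nr4a3* for *Rel* (0.85 and 0.84), and *Sqstm1* and *C1qtnf1* for *Rela* (0.85 and 0.85). *Nfkbia* was closest to *A530030E21Rik* (r = 0.84) and *H2-K2* (0.78), *Nfkbiz* to *Neb* and *Rpl27-ps3* (0.87 and 0.87), *Tnfaip3* to *Rasgrp1* (0.80) and *Ccr7* (0.75), and *Traf3* to *Polr3a* and *Setd1b* (0.81 and 0.81). The second gene for *Nfkb2* was *Fcamr* (0.89), a receptor for IgA and IgM. Low genes among these rest on few counts, such as *Neb*, *Rpl27-ps3*, *Fcamr* and *Rasgrp1* with means of 1.17, 1.17, 1.48 and 1.68 CPM. Knockout ZT12 replicate 5, which had high epithelial markers, was the lowest of its group for 8 of the 10 genes, and control ZT0 replicate 2 for 7.

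Other genes of the pathway were described from lists by role. Of 25 adaptors and ubiquitin enzymes, 3 were called in control mice (1 higher and 2 lower), where 1.73% of all genes were. Among them *Tnip1*, a partner of A20, fell by 0.49 at ZT12 (edgeR adjusted p = 0.0197), and *Tnip2*, another A20-binding protein, rose by 0.50 (adjusted p = 0.0378). None of the 25 was called in knockout mice, where the values of *Tnip1* and *Tnip2* were -0.17 and 0.14, and their interaction adjusted p-values were 0.455 and 0.476. *Otud7b*, a deubiquitinase of TRAF3, had values of -0.45 and 0.09 (adjusted p = 0.0579 in control mice), and *Malt1*, a paracaspase of the pathway, of -0.29 and -0.13. The median of the 25 genes was 0.03 in control and -0.04 in knockout mice, against 0.0063 and 0.0055 for all genes tested.

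None of 12 kinases was called in either genotype. All 12 had a fitted value below 0 in control mice (median -0.10, 2 at an unadjusted p under 0.05, against 18.1% of all genes). In knockout mice 6 did (median 0.02). The medians of all genes tested were 0.0063 and 0.0055. *Ikbke*, an IKK-related kinase, was at -0.60 in control (adjusted p = 0.0696) and -0.56 in knockout mice, and fell by 0.58 in the added mean of both (adjusted p = 0.0264), as did *Tnip1* (by 0.33, adjusted p = 0.0285). *Irak2*, a kinase of Toll-like receptor signalling, had values of -0.25 and -0.35, and *Tbk1*, the close relative of IKKε, of -0.07 and 0.20. No gene was called among 6 other members of the IκB family, of which *Nfkbid* had values of 0.17 and -0.47 and *Bcl3*, a cofactor of p50 and p52, of -0.16 and -0.17. No gene was called among 12 upstream receptors, where *Tnfrsf1a*, a TNF receptor, had values of 0.77 and 0.28 and *Ltbr*, a receptor of the non-canonical arm, of 1.16 and -0.12.

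**Figure D5:**
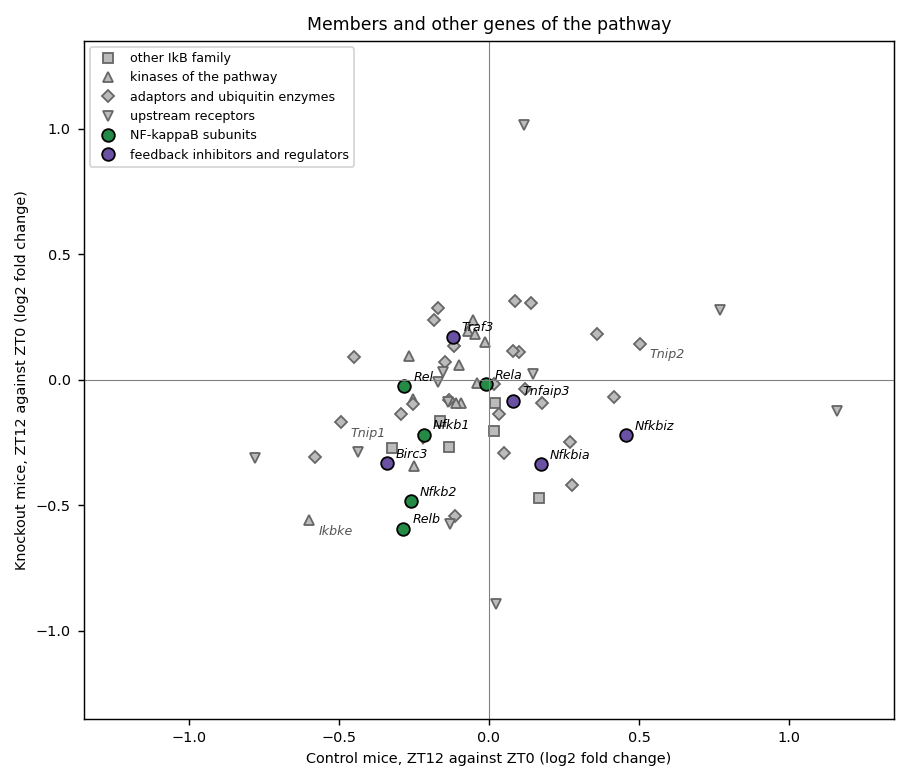
Log2 fold change of ZT12 against ZT0 in control mice (x axis) and knockout mice (y axis) for the 10 genes (circles) and 55 other genes of the pathway (grey, shapes by role). *Nfkb2*, *Relb* and *Birc3* lie in the lower left, and *Nfkbia* and *Nfkbiz* in the lower right.

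Of 31 known NF-κB target genes none was called in either genotype. In control mice 23 had a fitted value above 0 (median 0.25, 6 at an unadjusted p under 0.05), and in knockout mice 14 did (median -0.03, 1 higher and 5 lower at an unadjusted p under 0.05), against 18.1% and 8.01% of all genes at that level. In the interaction 8 of the 31 had an unadjusted p under 0.05, all with values below 0, against 10.8% of all genes (5.63% with values below 0). Of the 14 dissociation genes, 8 also had values below 0 at that level in the interaction, and 0 had values above 0. The part of dissociation in the values of the target genes was not tested. *Gadd45b*, a stress response gene, had values of 0.36 and 0.10, *Il10*, which encodes an anti-inflammatory cytokine, of 1.22 and -0.81, and *Junb*, an AP-1 subunit, of 0.57 and -0.64. In the list of 10 glucocorticoid response genes, *Fkbp5* rose by 0.83 in control mice (edgeR adjusted p = 0.0414) and had a value of 1.04 in knockout mice (adjusted p = 0.263).

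Markers of other cells gave the following beside these results. No plasma cell, T cell, myeloid, other B cell or epithelial marker was called by edgeR in either time comparison, and 6 of 13 epithelial markers in control mice and 1 in knockout mice had an unadjusted p under 0.05 with higher values at ZT12. In the mean of both genotypes, which called *Nfkb2*, *Relb* and *Birc3*, 11 of the 13 did, and all 13 had a fitted value above 0 (median 2.48). The part of epithelial RNA in those calls was not tested beyond leaving out the 3 libraries. Their summed level was 55.1 to 292 CPM (median 72.3) and 75.8 to 849 CPM (median 131) in control mice at ZT0 and ZT12, and 76.8 to 87.1 CPM (median 79.1) and 67.3 to 691 CPM (median 93.0) in knockout mice. With the 3 libraries of high epithelial markers left out, the time differences of *Nfkb2* and *Relb* were -0.28 and -0.28 in control mice and -0.41 and -0.53 in knockout mice. No marker was at 0 in every library, though 2 of the 13 myeloid and 1 of the 9 stromal markers did not pass the count filter. The summed level of the stromal and endothelial markers was 24.0 to 47.2 CPM, of which *Pecam1* alone averaged 33.4 CPM and *Cdh5* 2.53 CPM. *Pecam1*, an adhesion molecule of endothelial cells that leukocytes also express, fell by 0.51 in control mice (adjusted p = 0.0494).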

How the data were processed

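Bulk RNA-seq of 21 mice was used, 1 library per mouse. The deposited table holds the authors' raw read counts, 1 value per gene and library, without normalization. The aligner, counter, genome build and use of strand are not given in the sources used here. Coordinates are GRCm38: 52105 of 53706 matched genes (97%) and 9 of the 10 members have those of GENCODE M21. No column was left unmapped.

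Genes with at least 10 counts in all were fitted with edgeR 4.0.16 (R 4.3.3, TMM, robust quasi-likelihood, means of the 4 groups), and p-values were adjusted by Benjamini-Hochberg over all genes tested and called under 0.05. The authors used DESeq2, which stood as an alternative (version 1.42.0). CPM are TMM-normalized, correlations used log2 CPM (prior count 2), and intervals are 95% from the fit. The tests were first tested on simulated data. Members, lists and the κB search were chosen with earlier results of these data known. Of each list, genes called in any comparison were named (1 is not reported here), with up to 2 of smallest p in control mice and 1 in the interaction. The mean over both genotypes and 3 alternatives (run of columns as a term, and 2 sets of libraries left out) were added after the data were seen.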

Additional observations from a re-analysis of the deposited data

Results flagged for a closer look

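The level of *Nfkbia* in knockout ZT0 replicate 3 was 215.1 CPM, with the nearest library of that group at 128.7 CPM, a gap of 0.900 of the whole range of the 4 libraries. It was the only one of 40 sets of values (10 genes in 4 groups) in which 1 library lay this far from the rest, and chance alone would give about 2. The same library had 59.4% of its counts on immunoglobulin genes, the highest share of its group, and the highest summed level of dissociation genes of all libraries (9873 CPM). The part of these in the *Nfkbia* value was not tested.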

How the results depend on the processing

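Of 1960 member values under 33 alternatives (21 of them without 1 library), 1830 kept their sign and their side of the threshold, 8 passed the threshold newly, 3 no longer passed it and 119 changed sign, 48 of those in alternatives other than leaving out 1 library. Of the 119, 113 lay within 1 SE of 0 in both fits, and none was called. The cause was not tested for any of these. With library size only, the median shift of all genes was -0.20 in the control time difference and 0.18 in the interaction. It was 0.12 in the genotype difference at ZT12 and -0.11 over both genotypes.

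The members called in control mice were 2 by DESeq2, 3 with library size only (*Nfkb2*, *Relb* and *Birc3*, at -0.47, -0.50 and -0.54, where 446 genes were called in all) and 0 to 1 without 1 library, in knockout mice 2 by DESeq2, and over both genotypes 0 at an adjusted p under 0.01 and 2 to 3 without 1 library. *Birc3* over both genotypes also lost its call with the replicate block (adjusted p = 0.0615).

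All genes called in control mice numbered 14 at 0.01, 1052 by DESeq2, 38 from the groups of the comparison alone, 0 with the immunoglobulin share as a covariate (1648 at an unadjusted p under 0.05 by edgeR), 183 with the replicate block, 545 with the run of columns as a term, 202 and 88 without the 2 libraries of high immunoglobulin share (control ZT12 replicate 2 and knockout ZT0 replicate 3) and the 3 of high epithelial markers, and 31 (without control ZT0 replicate 2) to 944 (without control ZT12 replicate 1). In knockout mice they numbered 47 by DESeq2, 1 each without the count filter, with the immunoglobulin covariate and without the 3 epithelial libraries, and 0 to 1 without 1 library. The interaction had 4 by DESeq2 and 0 to 1 without 1 library, the genotype comparison 5 at ZT0 and 8 at ZT12 by DESeq2, and 2 to 3 and 2 to 4 without 1 library. Over both genotypes they numbered 22 at 0.01, 664 by DESeq2, 329 with the run of columns, 312 and 96 without the 2 and the 3 libraries, and 96 (without knockout ZT0 replicate 1) to 291 (without control ZT12 replicate 1).

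Signs changed as follows. By DESeq2 and with its size factors in edgeR, *Rela* was 0.014 in the control time difference, *Birc3* -0.017 in the interaction and *Tnfaip3* 0.0094 over both genotypes. With filterByExpr these were 0.0036, -0.011 and 0.0028. With library size only, *Nfkbia* was -0.048 and *Tnfaip3* -0.12 in the control time difference, *Nfkb1* 0.17, *Rela* 0.18 and *Tnfaip3* 0.0052 in the interaction, *Nfkb2* -0.00095 and *Birc3* -0.038 in genotype at ZT0, *Rela* 0.047 and *Tnfaip3* 0.073 in genotype at ZT12, and *Nfkbiz* -0.0012 and *Traf3* -0.090 over both. With the immunoglobulin covariate, *Nfkbia* was -0.092 and *Traf3* 0.024 in control, *Rela* 0.046 and *Birc3* -0.0074 in the interaction, *Rel* 0.083 and *Traf3* 0.030 in genotype at ZT0, and *Tnfaip3* 0.011 over both. With the run of columns, *Rela* was 0.018 in control, 0.061 in knockout, 0.042 in the interaction and 0.039 over both. Without the 3 epithelial libraries, *Rela* was 0.0023 in control, *Rel* 0.088 and *Rela* 0.028 in knockout, *Nfkb1* 0.044 and *Rela* 0.025 in the interaction, *Rel* 0.013 in genotype at ZT0, and *Rela* 0.015 and *Tnfaip3* 0.10 over both. With the replicate block, *Rela* was 0.010 in knockout and 0.026 in the interaction, and *Tnfaip3* 0.014 in genotype at ZT12 and 0.0050 over both. Without the 2 immunoglobulin libraries, *Nfkbiz* was 0.0045 in knockout, *Rela* 0.026 in the interaction, *Rel* 0.053 and *Traf3* 0.027 in genotype at ZT0, and *Nfkbia* 0.0018 over both.

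Without 1 library, ranges that crossed 0 were *Rela* -0.040 to 0.025 and *Tnfaip3* -0.026 to 0.15 in control, *Rel* -0.19 to 0.088, *Rela* -0.083 to 0.028, *Nfkbiz* -0.40 to 0.010 and *Tnfaip3* -0.24 to 0.0034 in knockout, *Nfkb1* -0.056 to 0.054, *Birc3* -0.069 to 0.062 and *Rela* -0.075 to 0.036 in the interaction, *Birc3* -0.036 to 0.085, *Rel* -0.11 to 0.054 and *Traf3* -0.088 to 0.029 in genotype at ZT0, *Tnfaip3* -0.20 to 0.060 and *Birc3* -0.014 to 0.083 in genotype at ZT12, and *Tnfaip3* -0.081 to 0.042, *Rela* -0.046 to 0.0094, *Nfkbia* -0.13 to 0.040 and *Traf3* -0.019 to 0.055 over both.

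Over 28 pairs of equal replicate number in different groups the median correlation of deviations was -0.023, with 13 over 0.1. Over 136 pairs of unequal number it was -0.0063, with 47 over 0.1. These values do not show a pairing of mice by replicate number and cannot exclude it. Libraries of the same run of columns had a median of 0.26 over 52 pairs, against -0.12 for other pairs.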

Other observations

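Of the other genes of the lists, the control and knockout time differences were 0.53 and 0.27 for *Fkbp11* and 0.36 and -0.07 for *Igha*, both plasma cell genes. They were -0.95 and -0.02 for *Ebf1* and -0.93 and -0.88 for *Cr2*, which mark other B cells, 0.58 and 0.36 for *Cd14*, a myeloid gene, and 0.54 and 0.15 for *Epcam*, an epithelial gene. *Reg3b*, an epithelial gene of antimicrobial defence, had values of -0.74 and 3.55, with libraries from 0 to 215 CPM. For *Zfp36* and *Fos*, early response genes, they were 0.38 and -0.14, and 1.30 and -1.23. For *Cdkn1a* and *Nr3c1* they were 0.61 and 0.04, and -0.45 and 0.28. The low markers *Pdgfra*, *Cd8b1*, *Fcer2a*, *Cd8a*, *Zbtb16*, *Col3a1*, *Csf3r* and *Fabp1* had 13, 21, 62, 78, 148, 157, 220 and 257 counts over all 21 libraries, and no fold change is given for them. None of these genes passed an adjusted p of 0.05 by edgeR in either genotype.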
